A study of Mus musculus with 9 samples.

Results

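Genes for secreted and matrix proteins of the kind made in the meninges, the membranes around the brain, were followed through 3 layers of mouse piriform cortex, the primary cortical area for smell. The 10 genes were Ogn, Dcn, Lum, Bgn, Fmod, Omd, Myoc, Ptgds, Mgp and Crabp2, out of 33964 annotated gene symbols in the files. They were selected on their higher measured levels in layer A of these same samples, so their differences between layer A and the other layers are described here without a test. Each gene is represented by its transcript with the highest mean count over the 9 samples. Of the 10 members, 8 reached 10 counts in 3 or more samples and entered the fit, and Omd and Crabp2 did not.

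The study asked which genes separate the layers of the piriform cortex. Layers A, B and C were each sampled 3 times by laser-capture micro-dissection of fresh-frozen brain sections, a method that cuts out a piece of tissue under the microscope. All samples came from wild-type mice of the C57BL/6 strain, with an age of 8 weeks in the sample labels (the study's methods give another age). The labels letter the layers and hold no key to anatomical layers I to III, and they do not say which samples shared an animal, so that any p-value here measures only the spread between these samples. Total counts lay between 23104306 and 76471683 per sample, and the libraries were not alike: mitochondrial transcripts took 56.4 to 72.6%, 13.1 to 30.1% and 21.2 to 59.0% of the counts in layers A, B and C. Levels are given as normalised CPM (counts scaled to a common library size), which divide a count by a library total scaled by TMM, a factor that sets most transcripts equal between libraries. A count of 3, taken as the floor of detection, corresponded to 0.0256 to 0.254 normalised CPM.

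Ogn, Dcn, Lum, Bgn, Fmod and Omd belong to the small leucine-rich proteoglycans, secreted proteins built of leucine-rich repeats that bind collagen fibrils and set their thickness and spacing. Most carry glycosaminoglycan chains, dermatan or chondroitin sulphate on decorin (Dcn) and biglycan (Bgn) and keratan sulphate on lumican (Lum), fibromodulin (Fmod) and osteomodulin (Omd). In the brain their best known source is the fibroblasts of the pia and arachnoid and of the walls of larger vessels. Ptgds and Mgp are also released by meningeal cells, whereas Crabp2 acts inside the cell, and its product is therefore not a secreted protein.

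Promoter sequences of 300 bases, running from 250 bases before to 50 bases after the start site that RefSeq gives, were found in RefSeq (GRCm38.p6) for 6 of the 10 members. Those of 4 genes are shown because they span the pattern described here: Myoc and Ogn had the largest fitted differences between layers A and C, Ptgds was the most abundant member, and Bgn had the smallest difference between layers A and C. That start site lay 5, 31 and 1 bases before the start of the counted transcript in Myoc, Ogn and Bgn, and 93 bases inside it in Ptgds. Each sequence runs 5′ to 3′ on the strand of its gene, and capitals mark every match to 5 short motifs searched on both strands.
Myoc chr1:162638900-162639199 (+ strand): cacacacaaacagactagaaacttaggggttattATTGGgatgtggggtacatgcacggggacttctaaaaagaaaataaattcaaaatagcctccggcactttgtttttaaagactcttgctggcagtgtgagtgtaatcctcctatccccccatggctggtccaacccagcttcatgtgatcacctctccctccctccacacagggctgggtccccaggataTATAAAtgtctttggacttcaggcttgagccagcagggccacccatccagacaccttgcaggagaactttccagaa
Ogn chr13:49607765-49608064 (+ strand): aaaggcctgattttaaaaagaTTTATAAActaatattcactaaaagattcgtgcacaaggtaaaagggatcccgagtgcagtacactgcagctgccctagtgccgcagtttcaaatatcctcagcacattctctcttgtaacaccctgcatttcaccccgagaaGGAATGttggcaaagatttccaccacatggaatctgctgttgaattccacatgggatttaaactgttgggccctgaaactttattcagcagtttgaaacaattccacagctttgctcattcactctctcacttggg
Ptgds chr2:25469700-25469999 (- strand): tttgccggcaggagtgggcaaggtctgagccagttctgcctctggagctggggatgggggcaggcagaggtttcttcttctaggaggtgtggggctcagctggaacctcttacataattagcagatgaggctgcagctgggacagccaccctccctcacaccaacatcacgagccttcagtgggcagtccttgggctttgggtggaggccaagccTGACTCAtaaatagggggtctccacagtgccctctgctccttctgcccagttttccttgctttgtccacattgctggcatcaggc
Bgn chrX:73483351-73483650 (+ strand): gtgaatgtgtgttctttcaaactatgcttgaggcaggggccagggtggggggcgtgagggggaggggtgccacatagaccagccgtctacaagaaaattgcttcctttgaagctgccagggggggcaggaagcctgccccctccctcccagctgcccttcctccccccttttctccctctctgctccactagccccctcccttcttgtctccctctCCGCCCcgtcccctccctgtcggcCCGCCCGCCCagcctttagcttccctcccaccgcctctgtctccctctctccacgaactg
The TATA box was searched as TATAAA, the CCAAT box by the letters of its name, the GC box as GGGCGG, the AP-1 site as TGANTCA and the TEAD site as GGAATG. Of 32851 promoters of the same length, 13.6% held a TATA box, 37.4% a CCAAT box, 35.7% a GC box, 7.81% an AP-1 site and 14.7% a TEAD site. Counting the start site as position 1, the Myoc promoter held TATAAA with its first base at -26 and a CCAAT box on the opposite strand at -216. The Ogn promoter held TATAAA on both strands in overlapping bases, at -229 and -227, and GGAATG at -86. A match to TGANTCA lay at -35 in the Ptgds promoter, and 3 GC boxes on the opposite strand, the last pair sharing bases, lay at -34, -10 and -6 in the Bgn promoter. Of the promoters not printed, Fmod held CCAAT at 35 and Omd held none of the 5 motifs. The members' promoters did not share a base composition: GC content was 63.7% in Bgn, 57.7% in Ptgds, 51% in Fmod, 48.7% in Myoc, 42.3% in Ogn and 37.7% in Omd, against a median of 52.7% over all promoters. No motif was held by more than 2 of the 6, and none of these patterns was common to the members.

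In every one of the 10 genes the 3 layer A libraries lay above all libraries of layers B and C. The plot of the members by library shows the separation, which is widest in Myoc, Ogn and Fmod and narrowest in Omd.

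**Figure D1:**
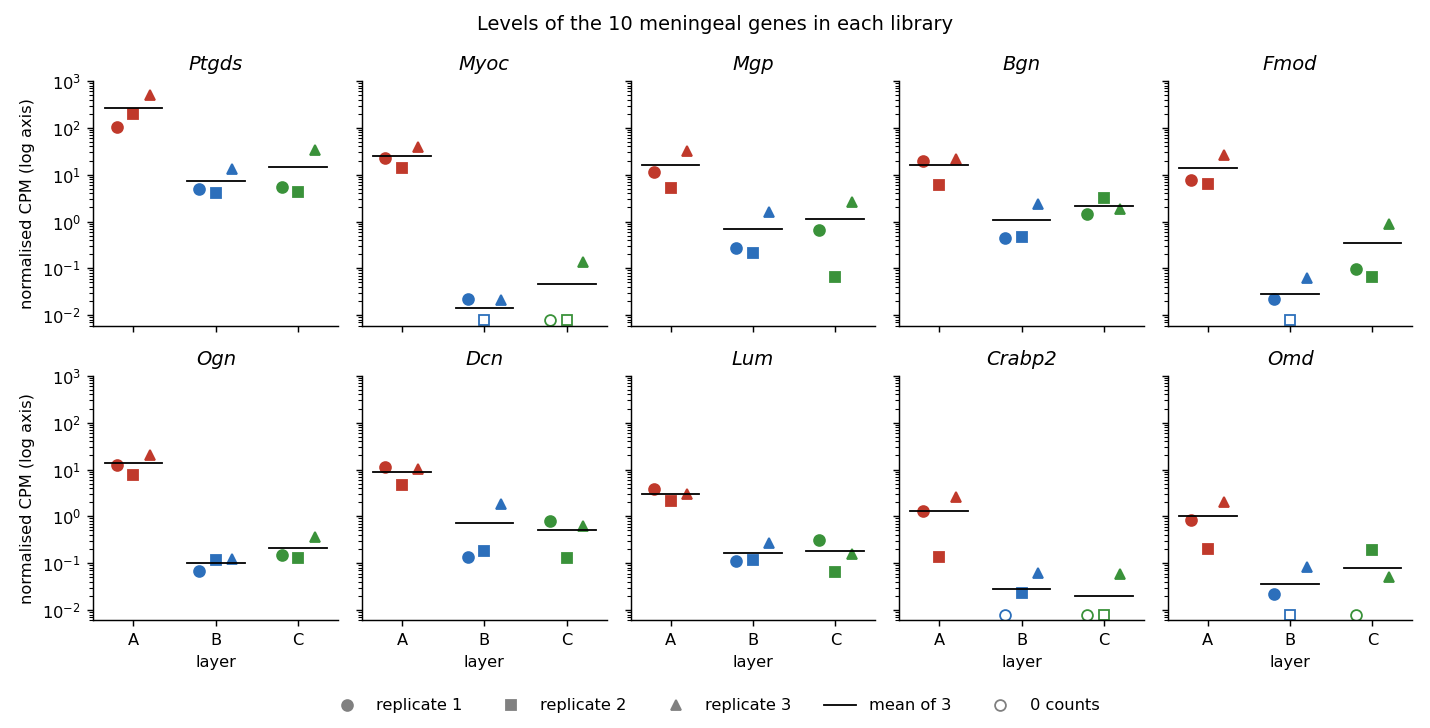
Normalised CPM (log axis) of the 10 members in the 9 libraries, by layer, with 1 panel per gene, symbols for replicate numbers, lines for means of 3 and open symbols at the bottom for libraries with 0 counts. Layer A lies highest in each panel, and Ptgds reaches 494 normalised CPM in layer A replicate 3.

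Decorin and biglycan are the class of small proteoglycans that carry dermatan or chondroitin sulphate, and both bind TGF-beta as well as collagen. Dcn (ENSMUST00000105287, 8 exons, chr10:97479609-97518143 on the + strand of GRCm38) measured 11.4, 4.74 and 10.05 normalised CPM in layer A replicates 1, 2 and 3. Layer B libraries measured 0.135, 0.185 and 1.87 normalised CPM, and layer C libraries 0.810, 0.128 and 0.630. The lowest layer A library thus lay 2.53 times above the highest library of layer B, which was replicate 3. A second Dcn transcript had a mean count within 10% of the one used, so the counts cannot be assigned to one isoform. Bgn (ENSMUST00000033741, 8 exons, chrX:73483602-73495933, + strand) measured 19.98, 5.95 and 21.4 normalised CPM in layer A. The corresponding Bgn levels were 0.449, 0.462 and 2.37 in layer B and 1.47, 3.13 and 1.81 in layer C. Replicate 3 of layer B was again apart from the others of its layer, at 5.21 times their mean for Bgn and 11.7 times for Dcn. Markers of several cell types were higher in that library as well: the leptomeningeal fibroblast list summed to 3.62 normalised CPM against 0.831 and 0.877 in the other layer B libraries, pericyte and smooth muscle markers to 63.1 against 19.0 and 23.5, and endothelial markers to 22.1 against 8.33 and 10.9. Astrocyte markers summed to 287 against 109 and 115, microglia markers to 47.9 against 17.4 and 18.7 and oligodendrocyte markers to 228 against 46.7 and 48.3. Their part in these levels was not tested, and in bulk tissue fewer cells of a type and less RNA per cell cannot be told apart.

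Lumican, fibromodulin and osteomodulin are relatives that carry keratan sulphate, best known from cornea, tendon and bone. Lum (ENSMUST00000038160, 3 exons, chr10:97565128-97572703, + strand) measured 3.81, 2.14 and 3.07 normalised CPM in layer A, the most even of the 10 genes there, with a highest library 1.78 times the lowest. In layer B it measured 0.112, 0.115 and 0.271 and in layer C 0.319, 0.0638 and 0.153, so that both layers lay below layer A in every library. Fmod (ENSMUST00000048183, 3 exons, chr1:134037254-134048277, + strand) measured 7.54, 6.28 and 26.9 normalised CPM in layer A. Its layer B libraries held 1, 0 and 3 counts, whereas layer C held 4, 1 and 106. Nearly all of the Fmod signal of layer C was thus in replicate 3, at 0.903 normalised CPM against 0.0981 and 0.0638.

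Omd, the scarcest member per length, had 10, 3 and 81 counts in the layer A libraries, 1, 0 and 4 in those of layer B and 0, 3 and 6 in those of layer C (ENSMUST00000065494, 3 exons, chr13:49582766-49592609, + strand). Layer A replicate 2 and layer C replicate 2 each held 3 counts and differed only in their scaling, at 0.2004 and 0.1914 normalised CPM, so the separation of these layers rests on replicates 1 and 3. Pooled over the libraries, Omd was 38.2 times as high in layer A as in layer B (95% Clopper-Pearson interval 15.8 to 120.3) and 27.1 times as high as in layer C (13.7 to 61.2). These intervals cover counting error only, since amplified reads without molecular identifiers are not independent molecules.

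Osteoglycin (Ogn, also called mimecan) is a further small proteoglycan of the collagen matrix. Ogn (ENSMUST00000021822, 7 exons, chr13:49608046-49624501, + strand) measured 12.2, 7.48 and 20.8 normalised CPM in layer A. Layer B measured 0.0674, 0.115 and 0.125, and layer C 0.147, 0.128 and 0.358. The lowest layer A library was 59.9 times the highest of layer B and 20.9 times the highest of layer C, which makes Ogn the proteoglycan of the set with the clearest gap to layer C. Ogn and Omd both lie within Cenpp, a gene of the opposite strand that shares 0 exon bases with them. Cenpp measured 0.593, 0.0668 and 0.598 normalised CPM in layer A and 0.564 to 0.764 in the libraries of layers B and C, so that replicates 1 and 3 of layer A lay within that range.

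Myocilin, a secreted glycoprotein with an olfactomedin domain that is best known from the outflow tissue of the eye, was read almost entirely from layer A. Myoc (ENSMUST00000028020, 3 exons, chr1:162639155-162649693, + strand) measured 22.7, 14.0 and 38.9 normalised CPM in layer A, from 268, 209 and 1559 counts. Layer B held 1, 0 and 1 counts and layer C 0, 0 and 16, so that layer C replicate 3, at 0.136 normalised CPM, carried all Myoc counts of its layer. Pooled over libraries, Myoc was 2068 times as high in layer A as in layer B, with a counting interval of 571.7 to 17088, and 330.7 times as high as in layer C (203.2 to 579.7). Myocos, on the opposite strand, shares 93 exon bases with Myoc and had 18 counts in layer A and 0 in the other layers. The libraries did not keep strand, so those reads cannot be told apart.

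Ptgds makes prostaglandin D2 and, once secreted into cerebrospinal fluid, carries small lipids. It is made by leptomeningeal cells and by oligodendrocytes and choroid plexus. Ptgds (ENSMUST00000015234, 7 exons, chr2:25466709-25469842, - strand) measured 104.2, 197 and 494 normalised CPM in layer A, from 1231, 2955 and 19808 counts. Ptgds levels were 4.99, 4.04 and 12.9 normalised CPM in layer B and 5.45, 4.27 and 34.4 in layer C. Replicate 3 was the highest library in each layer, and in layer C it stood at 7.08 times the mean of the others. A further 3 Ptgds transcripts had mean counts within 10% of the one used and cannot be separated from it. Oligodendrocyte markers summed to 508 normalised CPM in layer C replicate 3 against 141 and 141 in the other layer C libraries, and to 280 against 187 and 179 in layer A. The 8 choroid plexus markers summed to 2.61 to 8.13 normalised CPM in the layer A libraries, 0.770 to 1.797 in those of layer B and 0.574 to 1.32 in those of layer C. In layer A most of this was Kcnj13, which was higher in layer A in both comparisons, whereas Kl, the other tested marker, did not pass, Otx2 had 0 counts in every library and Folr1 0 in layers A and B. The part of either cell type in the Ptgds level was not tested.

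Matrix Gla protein, which depends on vitamin K and restrains calcification of vessel walls and cartilage, varied more between libraries of one layer than most members. Mgp (ENSMUST00000032342, 4 exons, chr6:136872435-136875823, - strand) measured 11.2, 5.28 and 32.8 normalised CPM in layer A. In layer B it measured 0.270, 0.208 and 1.62 and in layer C 0.663, 0.0638 and 2.59, with replicate 3 highest in each layer. The gap between the lowest layer A library and the highest layer C library was 2.04-fold.

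Crabp2, which carries retinoic acid from the cytosol to its nuclear receptors, had 15, 2 and 104 counts in the layer A libraries, 0, 1 and 3 in those of layer B and 0, 0 and 7 in those of layer C (ENSMUST00000005019, 4 exons, chr3:87948666-87953376, + strand). Layer A replicate 2 was under the floor of 3 counts, as were both layer C libraries other than replicate 3. Crabp2 was 61.5 times as high in layer A as in layer B over the pooled libraries (counting interval 23.4 to 229.2) and 44.9 times as high as in layer C (21.2 to 114.1).

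Compared per length of transcript within layer A, Ptgds stood apart from all other members. Its level of 294 ± 226 normalised CPM per kb (SD, n = 3) exceeded Mgp, at 26.6 ± 23.5, and the 2 genes did not overlap in any library. Below Ptgds the order of means was Mgp, Myoc at 12.1 ± 6.10, Bgn at 6.53 ± 3.54, Ogn at 5.26 ± 2.63, Dcn at 4.97 ± 2.01 and Fmod at 4.35 ± 3.71 normalised CPM per kb. Crabp2 at 1.43 ± 1.32, Lum at 1.23 ± 0.342 and Omd at 0.657 ± 0.593 closed the order. Each of these genes overlapped its neighbour in the order, so below Ptgds the order of neighbours is not set beyond the spread of the libraries. Genes further apart could separate: the lowest Mgp library, at 8.55 normalised CPM per kb, lay above the highest of Ogn, at 8.10.

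**Figure D2:**
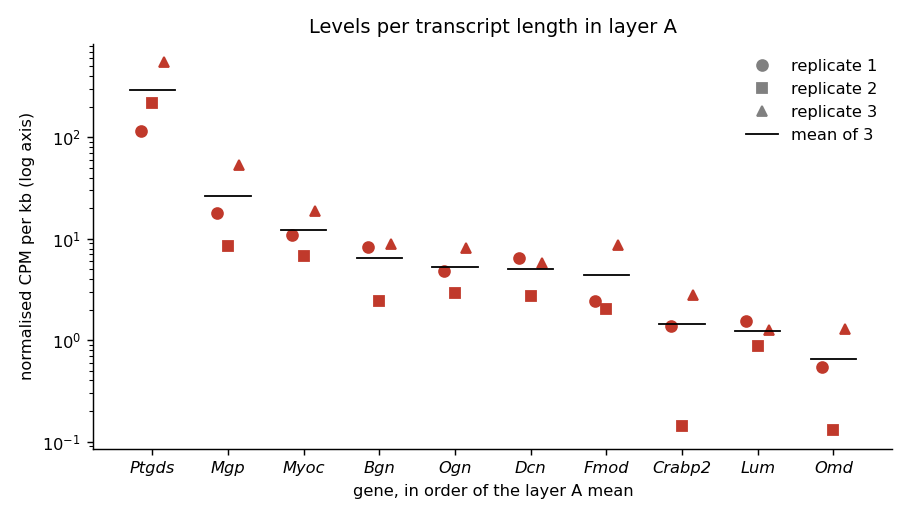
Normalised CPM per kb of transcript (log axis) of the 10 members in the 3 layer A libraries, with symbols for replicates and lines for means of 3. Ptgds lies above all other members at 116 to 548 normalised CPM per kb, and the other 9 form an overlapping series.

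The fitted differences from layer A are given as description. Against layer B, edgeR's quasi-likelihood fit gave log2 fold changes of 10.48 ± 0.886 (SE) for Myoc, 8.73 ± 1.08 for Fmod, 7.0 ± 0.603 for Ogn and 5.18 ± 0.833 for Ptgds. Mgp (4.54 ± 0.979), Lum (4.14 ± 0.625), Bgn (3.84 ± 0.671) and Dcn (3.56 ± 0.819) had smaller values, and the median of the 8 was 4.86 against -0.12 over all 56416 transcripts. All 8 passed an adjusted p of 0.05 on the side of layer A, where 10.7% of all transcripts did, and 10 of 10 members had no overlap between the groups, against 17.2% of tested transcripts that lay higher in layer A in this way. With 1 transcript per gene, as for the members, 3098 of 22273 passed on that side. Ogn, Fmod and Myoc met the filter on low counts only through layer A, and the values of Myoc and Fmod depend on the small prior count that the fit adds where layer B has almost no reads.

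Against layer C the same fit gave 8.32 ± 0.759 for Myoc, 5.80 ± 0.559 for Ogn, 4.99 ± 0.832 for Fmod and 4.16 ± 0.792 for Ptgds. The values were 3.96 ± 0.625 for Lum, 3.95 ± 0.841 for Dcn, 3.77 ± 0.935 for Mgp and 2.92 ± 0.646 for Bgn, with a median of 4.06 against -0.0067 over all transcripts. Again 8 of 8 passed, beside 6.98% of all transcripts on that side, and 10 of 10 did not overlap, beside 17% of tested transcripts. With 1 transcript per gene, 2261 of 22273 passed as higher in layer A. Because the members were named for this contrast and both comparisons use the same layer A libraries, nothing is read from these counts.

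Single libraries moved several of these values. Without layer B replicate 3 the fit against layer B gave a log2 fold change of 5.80 for Dcn, 5.16 for Bgn and 6.14 for Mgp. Leaving out layer C replicate 3 gave log2 fold changes between layers A and C of 12.71 for Myoc, 7.26 for Fmod, 6.57 for Ogn, 5.78 for Ptgds and 5.31 for Mgp. Layer C then had 0 Myoc counts, so the size of the Myoc value is set by the prior count and is not a measured ratio. Leaving out layer A replicate 3 lowered Ptgds to 4.38 against layer B and 3.36 against layer C, Mgp to 3.56 and 2.80, and Fmod to 7.77 and 4.06. Mgp no longer passed between layers A and C without layer A replicate 3, layer C replicate 1 or layer C replicate 2, and Bgn did not pass without layer C replicate 1. Every member kept its direction in each of these fits.

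**Figure D3:**
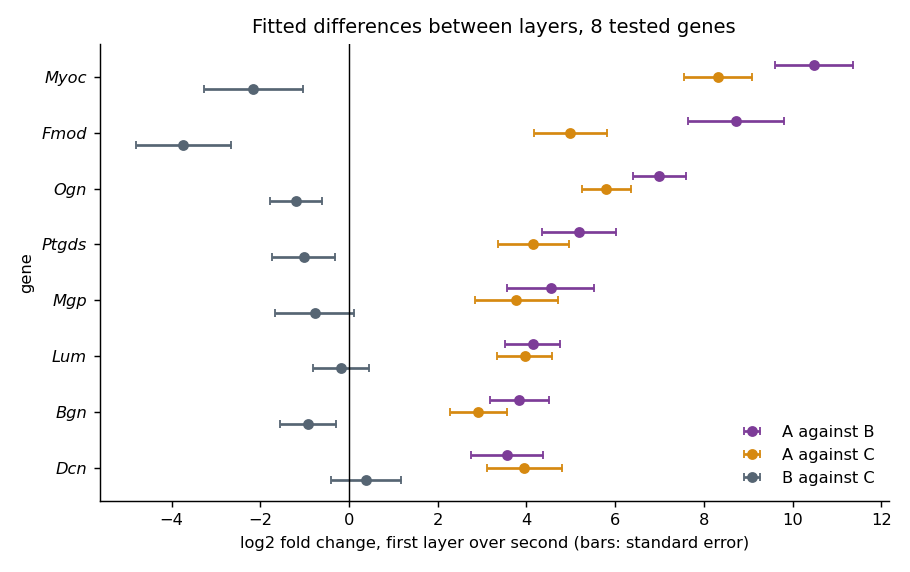
Log2 fold change between layers for the 8 tested members, with bars for the standard error, the first layer named being over the second. Both comparisons with layer A lie to the right of 0, from 2.92 to 10.48, and the comparison of layers B and C lies around and to the left of 0, from -3.74 to 0.39.

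Whether the members also differed between layers B and C did not enter their choice, and this comparison was tested. Only 5 of the 8 tested members, Dcn, Lum, Bgn, Ptgds and Mgp, met the filter on low counts within the libraries of layers B and C, and Ogn, Fmod and Myoc met it through layer A. None of the 5 passed (edgeR's quasi-likelihood F-test, Benjamini-Hochberg adjusted across the whole table, adjusted p of 1.00 for each), and 0% of all 56416 transcripts did, with a smallest adjusted p of 0.0698. An unadjusted p under 0.05 was found for 2316 of all transcripts and for none of the 5, and DESeq2 called 130 transcripts but 0 members. Log2 fold changes of layer B over layer C were -1.02 ± 0.709 for Ptgds, -0.93 ± 0.626 for Bgn, -0.78 ± 0.886 for Mgp, -0.18 ± 0.632 for Lum and 0.39 ± 0.790 for Dcn, where 56.6% of all transcripts had a value above 0. Except for Bgn, the signs rested on single libraries. Leaving out layer C replicate 3 gave 0.56 for Ptgds and 0.73 for Mgp. Leaving out layer B replicate 3 gave -1.87 for Dcn, and leaving out layer C replicate 1 gave 0.35 for Lum. Bgn stayed between -2.23 and -0.58 when any 1 library was left out.

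The fitted values of the 3 members with few reads in both layers are given without a reading of their test. They were -3.74 ± 1.08 for Fmod, -2.16 ± 1.11 for Myoc and -1.20 ± 0.591 for Ogn on the log2 scale. Fmod's 4 counts in layer B against 111 in layer C gave a pooled ratio of 0.0461 with a counting interval of 0.0123 to 0.121, and 106 of the 111 came from layer C replicate 3. Without that library the log2 fold change was -1.48 for Fmod and 2.25 for Myoc. Fmod and Ogn were the 2 members whose layer C libraries all lay above those of layer B, against 4.67% of tested transcripts with that order and 3.92% with the reverse order.

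Within a layer the members often had the same library highest. Replicate 3 was also the deepest library of each layer, at 43705625, 44224318 and 76471683 counts in layers A, B and C. The share of all transcripts highest in a given replicate was not computed, so this order is not read as a trait of the members. In layer A, replicate 3 was highest for 8 of 10 members and replicate 2 lowest for 9 of 10, the exceptions at the top being Dcn and Lum, which were highest in replicate 1. In layer B replicate 3 was highest for 9 of 10, all but Myoc, and in layer C for 6 of 10. Summed over the 10 genes, layer A held 195, 244 and 652 normalised CPM, layer B 6.09, 5.15 and 19.4, and layer C 8.96, 8.04 and 41.1. Ptgds made up 53.2 to 83.7% of this sum in the 9 libraries. In layer C replicate 3, Fmod stood at 11.2 times, Mgp at 7.13 times and Ogn at 2.60 times the mean of the other 2 libraries, whereas Dcn was at 1.34 times, Bgn at 0.785 times and Lum at 0.801 times that mean. Fmod, Mgp, Ptgds, Ogn, Myoc and Crabp2 were highest in this library within layer C, and Dcn, Lum, Bgn and Omd were not.

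The label of the set was compared with markers of leptomeningeal fibroblasts, 13 genes such as Slc13a4, Foxc1 and Col1a1. They summed to 47.8 to 133.8, 0.831 to 3.62 and 2.04 to 4.38 normalised CPM in layers A, B and C, with Foxc2 at 0 counts in layers B and C. All 11 tested markers passed as higher in layer A in both comparisons, beside 10.7% and 6.98% of all transcripts. With 1 transcript per gene, 3098 and 2261 of 22273 did. Col1a1, Col1a2, Col3a1 and Aldh1a2 are also counted in the pathway lists below, so these lists are not separate. Layer A was also higher in markers of several other cell types, so this was not particular to the leptomeningeal list. Against layers B and C, 10 and 10 of 10 astrocyte markers passed as higher in layer A. For pericytes and smooth muscle 10 and 9 of 10 did, for endothelium 9 and 8 of 10. For microglia 5 and 5 of 7 passed, and for border macrophages 3 and 3 of 4 tested. Astrocyte markers summed to 1250 to 1867, 109 to 287 and 200 to 309 normalised CPM in layers A, B and C, endothelial markers to 117 to 146, 8.33 to 22.1 and 16.9 to 28.0, and pericyte and smooth muscle markers to 252 to 406, 19.0 to 63.1 and 51.4 to 74.8. Microglia markers gave 109 to 142, 17.4 to 47.9 and 39.4 to 55.7, and border macrophage markers 9.08 to 16.5, 1.06 to 2.31 and 0.785 to 3.70. Oligodendrocyte markers did not follow, at 179 to 280, 46.7 to 228 and 141 to 508. Of these 10 markers, 2 passed as higher in layer A against layer B and 0 against layer C. The 7 excitatory neuron markers summed to 2332 to 4230, 1158 to 1254 and 1140 to 1675 normalised CPM in layers A, B and C, also highest in layer A. Singly they were divided, with 1 (Camk2a) passing as higher in layer A. By contrast, 3 passed as lower against layer B and 4 against layer C, with median log2 fold changes of -1.10 and -1.29. The members cannot be ascribed to one of these cell types from bulk tissue.

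**Figure D4:**
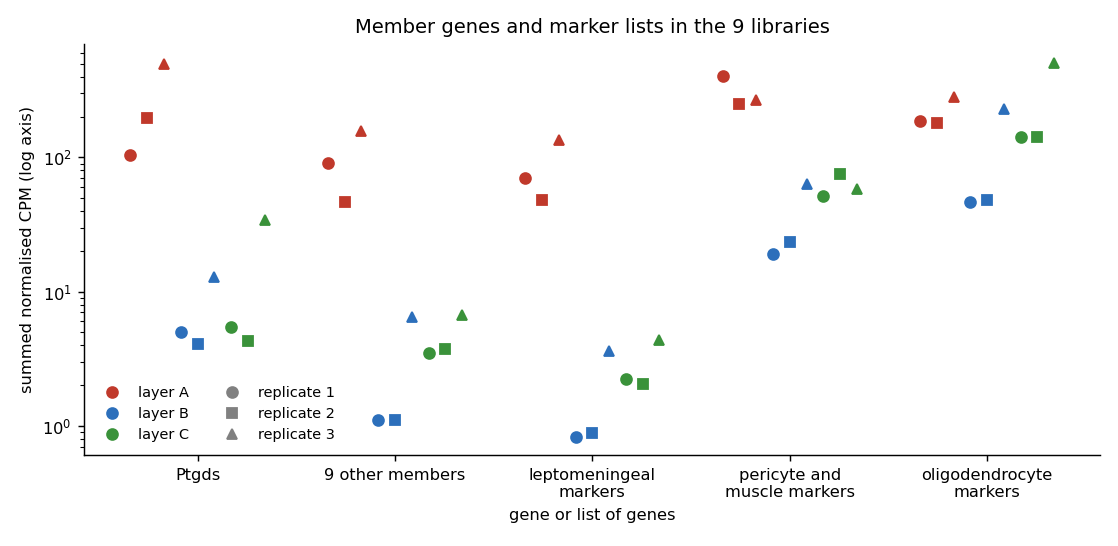
Summed normalised CPM (log axis) in the 9 libraries for Ptgds, the other 9 members and markers of leptomeningeal fibroblasts, of pericytes and smooth muscle and of oligodendrocytes. Colours give layers and symbols give replicates. Replicate 3 of layer C stands out in Ptgds and in the oligodendrocyte markers, at 34.4 and 508.

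The genes whose pattern was most like the mean standardised profile of the tested members, out of 13531 protein-coding genes, were Col1a1 (Pearson r = 0.995 over 9 samples), Arhgef19 (0.992), Flvcr2 (0.990), Cavin1 (0.989) and Slc13a4 (0.989). These values describe points that share the same 3 layers and libraries. Slc13a4, a sulphate transporter, measured 12.5, 9.02 and 25.9 normalised CPM in layer A and at most 0.187 in layer B and 0.554 in layer C, and Col1a1, a chain of type I collagen, measured 4.15, 2.94 and 10.3 in layer A and at most 0.250 and 0.307.

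All proteoglycan members but Bgn lie beside relatives in the genome. Ecm2, Aspn, Omd and Ogn follow one another within 119.7 kb (chr13:49504810-49624501), Dcn, Lum, Kera and Epyc within 202.8 kb (chr10:97479609-97682454), and Optc, Prelp and Fmod within 151.1 kb (chr1:133897199-134048277). In the first group all 4 genes had their highest mean in layer A. Ecm2, a matrix protein with leucine-rich repeats, measured 6.10 ± 3.53 (SD, n = 3), 0.315 ± 0.0336 and 0.657 ± 0.0718 normalised CPM in layers A, B and C, and Aspn, asporin, 2.64 ± 1.32, 0.132 ± 0.112 and 0.135 ± 0.117. The second group was divided. Beside Dcn and Lum, Kera, a proteoglycan of the cornea, had 1 count in 9 libraries, and Epyc, a proteoglycan of growth plate cartilage, measured 0.111 ± 0.127, 0.327 ± 0.0865 and 0.149 ± 0.0741 normalised CPM. Next to Fmod, Prelp measured 41.9 ± 14.7 normalised CPM in layer A against 4.30 ± 2.07 and 7.15 ± 2.23, whereas Optc, between 0.0833 and 0.383 in all libraries, showed little contrast at 0.273 ± 0.0233, 0.111 ± 0.0277 and 0.260 ± 0.146.

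**Figure D5:**
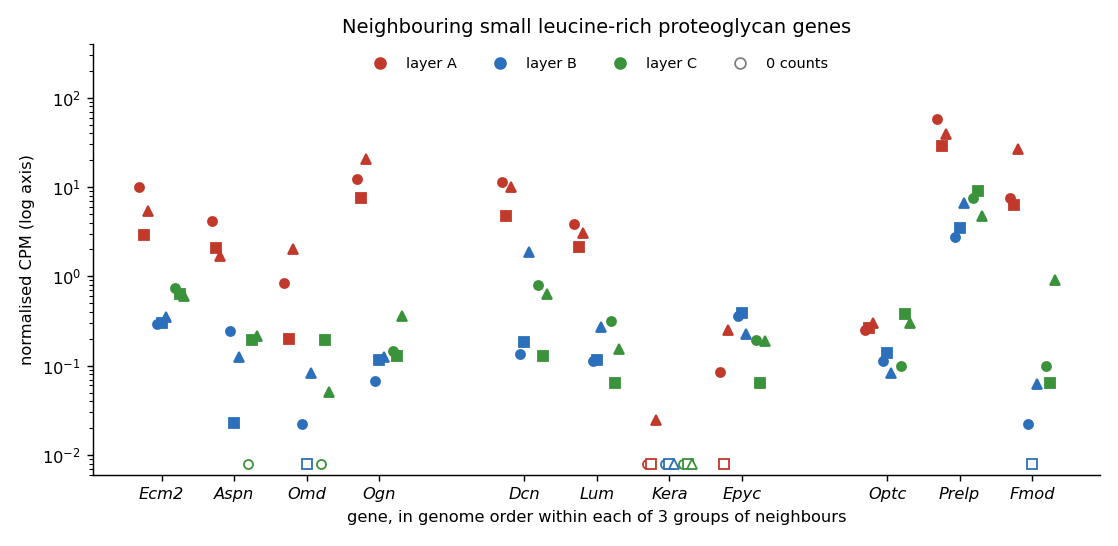
Normalised CPM (log axis) of 11 small leucine-rich proteoglycan genes in 3 groups of genome neighbours, with colours for layers, symbols for replicates and open symbols for libraries with 0 counts. Ecm2, Aspn, Omd, Ogn, Dcn, Lum, Prelp and Fmod lie highest in layer A, and Kera, Epyc and Optc do not show this separation from both other layers.

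Genes of the members' pathways were collected in 8 lists from textbook knowledge. Each list gene counts as 1 transcript, whereas the shares over all transcripts count every transcript of a gene. Refitted with 1 transcript per gene, 5010 of 22273 passed between layers A and B, 3098 of them higher in layer A. Between layers A and C 3752 passed in that fit, 2261 of them higher in layer A. Over the lists together, 41 of 98 tested genes passed between layers A and B, 38 higher in layer A and 3 lower, beside 16.5% of all transcripts, 10.7% higher and 5.83% lower. Between layers A and C 36 passed, 32 higher and 4 lower, beside 11.3% of all transcripts, 6.98% higher and 4.35% lower. Without layer C replicate 1 these counts were 12 of 97 genes and 1369 transcripts, and without layer A replicate 1 or layer C replicate 2 the list genes passing were 21 and 22. Their median log2 fold changes were 0.97 and 0.67. Between layers B and C 0 of 98 passed in edgeR's quasi-likelihood test, 13 with an unadjusted p under 0.05, and DESeq2 also called 0. Of the 12 other small leucine-rich proteoglycans, 8 were tested. Prelp (log2 fold change 3.28 ± 0.424 against layer B and 2.56 ± 0.412 against layer C), Ecm2 (4.25 ± 0.522 and 3.21 ± 0.496) and Aspn (4.27 ± 0.876 and 4.22 ± 0.885) were higher in layer A in both comparisons, and Tsku was so against layer B alone (3.83 ± 1.07, with 2.47 ± 0.963 against layer C). The others tested did not pass: Podn (0.57 ± 0.616 and -0.86 ± 0.614), Chadl (0.13 ± 0.495 and -0.01 ± 0.502), Epyc (-1.26 ± 0.887 and -0.26 ± 0.916) and Nyx (-0.79 ± 0.825 and -0.16 ± 0.844). Kera, Optc, Podnl1 and Chad had too few counts. The transcripts used for Podn and Podnl1 are annotated as a processed transcript and a retained intron, so their values do not describe a coding transcript.

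The enzymes that build the members' glycosaminoglycan chains passed in shares near those of all transcripts. These were 20% against layer B and 8% against layer C, beside 16.5% and 11.3% of all transcripts. With 1 transcript per gene, 5010 and 3752 of 22273 passed, so nothing is read from the counts. Of 25 tested, 4 were higher in layer A when set against layer B (Chsy1, Chst11, Chst2 and B4galt1) and 1 lower (Chst1), the median on the log2 scale being -0.02, and 2 were higher than in layer C (Chsy1 and Chst2). Chst2, a sulphotransferase of keratan-type chains, gave 2.44 ± 0.432 and 1.36 ± 0.417, and Chst1, another keratan sulphate sulphotransferase, -1.58 ± 0.409 and -0.74 ± 0.402. B3gat3 and B3gnt2, with log2 fold changes of -0.03 ± 0.415 and -0.44 ± 0.319 against layer B, did not pass.

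Most tested genes of the collagen fibrils to which the proteoglycans bind were higher in layer A. Of 13 tested genes of fibrils and their assembly, 8 passed as higher in layer A against layer B and 9 against layer C, with 0 lower, and medians of 3.22 and 2.96. As higher in layer A, 10.7% and 6.98% of all transcripts passed. Col1a2 (5.22 ± 0.603 and 4.47 ± 0.582), Col1a1 (5.46 ± 0.688 and 4.65 ± 0.656) and Pcolce (4.36 ± 0.831 and 4.01 ± 0.813), which assists the trimming of procollagen, passed in both. Bmp1, the protease that Pcolce assists, did not (-0.75 ± 0.512 and -0.24 ± 0.513). The list for decorin and biglycan held 10 tested genes for TGF-beta, its receptors and other receptors. Of these, 7 and 6 were higher in layer A, beside 10.7% and 6.98% of all transcripts. Among them were Tgfbr1 (2.67 ± 0.395 and 1.90 ± 0.384), Egfr (3.02 ± 0.433 and 2.09 ± 0.418) and Tgfb2 (1.77 ± 0.377 and 1.25 ± 0.373), but not Lrp1 (0.35 ± 0.288 and 0.36 ± 0.288).

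The relatives of Myoc were divided. In either direction 44.4% passed against layer B and 55.6% against layer C, beside 16.5% and 11.3% of all transcripts. Of 9 olfactomedin genes, Olfml1, Olfml2a and Olfml3 were higher in layer A in both comparisons, Olfml3 by 3.01 ± 0.451 and 1.72 ± 0.427 on the log2 scale. Olfm1, a neuronal member, was lower in layer A (-1.71 ± 0.322 and -1.19 ± 0.317), and so was Olfm3 against layer C (-2.12 ± 0.591, with -0.45 ± 0.577 against layer B). Olfm2 did not pass (-0.76 ± 0.438 and -1.13 ± 0.440).

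Around Ptgds, 12 prostaglandin genes were tested. Of these, 41.7% passed against layer B and 33.3% against layer C in either direction, beside 16.5% and 11.3% of all transcripts. Against layer B, Ptgs1, Hpgds, Abcc4 and Hpgd were higher in layer A and Ptgs2 lower, and against layer C Slco2a1, Abcc4 and Hpgd were higher and Ptgs2 lower. The 2 cyclooxygenases that feed Ptgds thus differed, Ptgs1 at 1.76 ± 0.453 and 1.08 ± 0.446 and Ptgs2 at -2.28 ± 0.637 and -2.12 ± 0.635, the value of Ptgs1 against layer C not passing. Hpgd, which breaks prostaglandins down, gave 1.93 ± 0.524 and 1.98 ± 0.529, and Ptges3 did not pass (-0.45 ± 0.528 and -0.07 ± 0.530). The prostaglandin D2 receptors Ptgdr and Ptgdr2 had too few counts to test.

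For Mgp, the list of Gla proteins and the vitamin K cycle held 7 tested genes. In each comparison 28.6% passed, which was 2 genes, beside 16.5% and 11.3% of all transcripts. Pros1 was higher in layer A in both comparisons, Prrg1 against layer B, and Prrg3 was lower against layer C (-1.19 ± 0.323, with -0.68 ± 0.320 against layer B). Vkorc1, which recycles vitamin K, stood at -0.002 ± 0.484 and 0.05 ± 0.486, and Gas6 at 0.58 ± 0.343 and 0.57 ± 0.343, neither passing. Vkorc1l1 did not pass either (-0.12 ± 0.395 and -0.44 ± 0.396).

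Genes that work with Crabp2 were higher in layer A in 6 of 14 tested cases against layer B, among them Aldh1a1, Aldh1a2, Dhrs3 and Stra6, and in 5 against layer C, where these 4 passed too. On the side of layer A, 10.7% and 6.98% of all transcripts passed. Aldh1a1, which makes retinoic acid, gave 3.26 ± 0.668 and 2.82 ± 0.656, and Dhrs3, which turns retinal back to retinol, 2.89 ± 0.429 and 2.09 ± 0.415. Of the receptors, Rxra passed as higher in layer A against layer B but did not pass against layer C. Rxrb passed in neither comparison (-0.40 ± 0.490 and -0.16 ± 0.490).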

How the data were processed

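RNA from laser-captured piriform cortex was amplified by the authors with the Ovation system, made into libraries that did not keep strand, and sequenced as paired reads that were aligned to mm10 with Bowtie, which does not split a read over an intron. Per the submitters' processing notes, HTSeq 0.5.3 and bcl2fastq 1.8.4 were also used. The deposited values are raw counts per Ensembl transcript for 95533 transcripts, with no normalization by the authors. The annotation release and the handling of reads shared by transcripts are not given in the sources used here. Whether an overlapping read was given to several transcripts or dropped can change the levels of members with several transcripts, such as Ptgds, Dcn and Bgn.

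Identifiers were joined to GENCODE M21 (GRCm38, the assembly of mm10), where 82807 of 95533 were found. The 56416 transcripts that reached 10 counts in 3 or more samples were scaled by TMM and tested with edgeR 4.0.16 (R 4.3.3), by quasi-likelihood F-tests between pairs of layers, fitted on the 9 samples together, with p adjusted over all transcripts by Benjamini-Hochberg (threshold 0.05). The standard error of a log2 fold change was taken from it and its F value. DESeq2 1.42.0 was an alternative, and the procedure was tested on simulated data. Groups follow the layer letters of the labels. Pearson correlations used log2 of normalised CPM plus 0.1. Counting intervals were exact binomial (Clopper-Pearson, 95%). The alternatives were another scaling, other filters on low counts, the replicate number as a block, only the 6 samples compared, sums by gene, 1 transcript per gene, no mitochondrial transcripts and each sample left out.

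The text names the 10 members, the other small leucine-rich proteoglycans, the 4 genes with the highest mean level per length of each other pathway list, the neighbours and overlapping genes of members and the 5 most similar genes. A list gene that this rule names is not reported here. Other list genes that passed are named beside their counts and were picked after their values were seen. The members and lists were chosen with earlier results of these data known.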

Additional observations from a re-analysis of the deposited data

How the results depend on the processing

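Between layers B and C no member that was tested passed under any alternative (5 were tested with only the 6 samples compared, 2 with at least 10 counts asked of all 9 samples and 5 without replicate 3 of every layer), although 130 transcripts passed with DESeq2, 10 with a filter of 1 count in total, 5 with counts summed by gene, 5 with 1 transcript per gene, 19 without replicate 3 of every layer (an alternative chosen after seeing the data) and 0 to 17 when 1 library was left out. Calls between layers A and B numbered 4918 with counts summed by gene and 5010 with 1 transcript per gene, where fewer features were tested, and 5570 (without layer A replicate 1) to 11337 (without layer B replicate 3) when 1 library was left out. Between layers A and C the numbers were 3637, 3752 and 1369 (without layer C replicate 1) to 9740 (without layer B replicate 3). Members passing in each of these comparisons fell from 8 to 2 with at least 10 counts asked of all 9 samples and to 5 without replicate 3 of every layer, because only 2 and 5 were then tested, and between layers A and C 6 to 8 passed when 1 library was left out. Of the pathway genes, 22 (layers A and B) and 21 (layers A and C) of 59 tested passed with the stricter filter, and 30 to 44 and 12 to 43 when 1 library was left out, the lowest without layer A replicate 1 and layer C replicate 1. The cause of the changes with single libraries was not tested. Blocking on the replicate number gave 9184, 6384 and 0 transcripts and 8, 8 and 0 members for layers A and B, A and C, and B and C. Deviations of samples with the same number correlated between -0.19 and 0.24, within the range of -0.37 to 0.39 for samples with different numbers. No label says what a number stands for, so whether samples with the same number belong together is not known and the pairing was not used. The log2 fold changes of the members against layer A kept their sign under every alternative. With counts summed by gene over all exons, the level of Ptgds in layer A was 769 normalised CPM per kb, which counts reads shared by its 5 transcripts repeatedly. Depth limits Omd, Crabp2 and, outside layer A, Myoc and Fmod, which had 3 or fewer counts in 4 to 6 libraries each.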
